A study of Danio rerio with 8 samples.

Results

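The effect of knocking down ddx3xb in zebrafish (Danio rerio) embryos was compared between 2 ages, 2 and 6 hours post fertilization (hpf). Every gene that reached 5 RPKM in at least 1 of the 4 expression tables was taken, which gave 11145 of the 33737 genes listed, and 8770 of these carried a symbol. For each gene the log2 ratio of knockdown over control, taken on RPKM + 1, was computed at each age, and the ratio at 2 hpf was subtracted from the ratio at 6 hpf. That subtraction is called the difference below, and it is positive where the knockdown level, relative to control, stood higher at 6 than at 2 hpf. It was used to sort genes into those that responded only at 6 hpf, only at 2 hpf, or at both ages.

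The 8 libraries, 2 per group, were poly(A) RNA of whole embryos injected with a morpholino against ddx3xb and sampled at 2 hpf, embryos of the control morpholino at 2 hpf, ddx3xb morphants at 6 hpf, and control embryos at 6 hpf. A morpholino is an antisense oligomer that blocks translation or splicing of its target, so the knockdown is transient, acts in every cell that received it, and need not lower the target's RNA. The genotype labels call the controls wild type, although their titles name a control morpholino. The second knockdown library at 6 hpf carries ddx4xb in its genotype label and ddx3xb in its title, and the title was followed. Embryos of 4 hpf are also named for the series and were not analysed here. Each group was deposited as a single RPKM value per gene for its 2 libraries, so no replicate spread, standard deviation or p-value can be given for any value below, and every comparison describes these tables.

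Before transcription starts in the embryo, the RNA it holds was laid down in the egg. During the maternal-to-zygotic transition, which falls between the ages compared here, stored transcripts are destroyed and zygotic genes begin to be transcribed. DDX3 proteins are DEAD-box RNA helicases that act on structured messenger RNA, chiefly in the initiation of translation, and translation of stored transcripts supplies the proteins of the embryo before its genome is active.

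A gene is said to respond where its log2 ratio reached 1 in size, that is 2-fold on RPKM + 1, and to respond at 1 age only where the difference also reached 2-fold. At 2 hpf 65 genes (0.583%) were higher and 96 (0.861%) lower in knockdown than in control embryos. At 6 hpf 1239 genes (11.1%) were higher and 878 (7.88%) lower. The difference between the ages itself reached 2-fold upward in 2247 genes (20.2%) and downward in 904 genes (8.11%).

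Most responses were found at 6 hpf alone. Of the 1823 genes in this class (16.4%), 1102 (9.89%) were higher and 721 (6.47%) lower in the knockdown. A log2 ratio under 0.5 in size at 2 hpf was found in 1665 of them and in 9624 of all 11145 genes. The class itself required one under 1 in size. At 2 hpf alone 78 genes responded (0.7%), with 29 (0.26%) higher and 49 (0.44%) lower. At both ages 47 genes did (0.422%), with 27 (0.242%) higher and 20 (0.179%) lower. In 9 genes (0.0808%) the sign turned over, with 6 (0.0538%) lower at 2 hpf and higher at 6 hpf and 3 (0.0269%) the other way round. A further 265 genes (2.38%) passed 2-fold at 1 age without a 2-fold difference, 110 (0.987%) of them higher and 155 (1.39%) lower, and 8923 (80.1%) passed it at neither age. Class borders were crowded: 979 genes lay within 0.1 of 2-fold on the log2 scale at 6 hpf, and 26 of the 78 genes of the 2 hpf class had a ratio under 1.1 in size. At the border itself WSB2 was counted with a log2 ratio of 1.00005 at 6 hpf and another gene at 0.999933 was not, while the floor on expression parted genes at 5.00239 and 4.99984 RPKM.

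**Figure D1:**
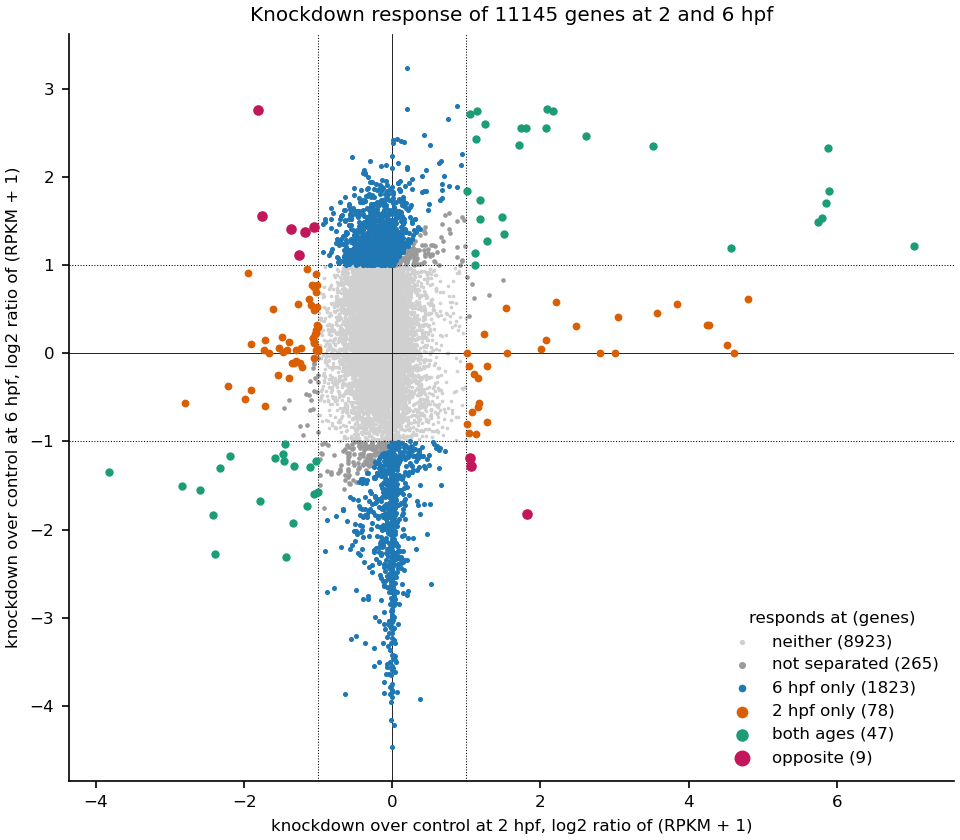
Each point is 1 of the 11145 genes, with the log2 ratio of knockdown over control on RPKM + 1 at 2 hpf on the x axis and at 6 hpf on the y axis. Colours mark the response classes with the number of genes in each, and dotted lines mark 2-fold. The 1823 genes of the 6 hpf class fill a vertical band around 0 on the x axis, while the 78 genes of the 2 hpf class lie along the x axis.

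The balance of higher and lower genes depended on how the tables were scaled. The median log2 ratio over the 11145 genes was -0.15 at 2 hpf and 0.24 at 6 hpf, so the median difference was 0.41. Dividing each knockdown table by its median ratio to control brought these medians to -0.01, -0.02 and 0.0038, and changed the count for 6 hpf alone to 429 higher and 1088 lower genes. It likewise turned the 2247 upward and 904 downward differences into 758 and 1441. The share of this class that was higher was 60.4% as deposited, 28.3% after that rescaling, 42.9% after quantile normalization and 58% after scaling to equal RPKM sums. Of the 1823 genes, 1149 stayed in the 6 hpf class after the rescaling by the median ratio, as did 41 of the 47 genes of both ages, 44 of the 78 genes of the 2 hpf class and 7 of the 9 that changed sign. RPKM values of the knockdown at 2 hpf summed to 731302, against 431798 in control at 2 hpf, 473849 in knockdown at 6 hpf and 461376 in control at 6 hpf. Features above 5000 RPKM, 5 in number, made up 45.1% of the first of these sums, 1.34% of the control sum at 2 hpf, 2.95% of the knockdown sum at 6 hpf and 0.776% of the control sum at 6 hpf.

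The direction at 6 hpf differed with the level of a gene's RNA measured at 2 hpf. Of the 7502 genes with 5 RPKM in at least 1 table of each age, 897 (12%) were higher and 92 (1.23%) lower in the knockdown at 6 hpf alone. Of the 1322 genes under 1 RPKM in both tables at 2 hpf, 72 (5.45%) were higher and 507 (38.4%) lower. These genes could not pass 2-fold at 2 hpf on this scale, so any response of theirs could be called only at 6 hpf. For them the class does not tell whether a response was absent at 2 hpf. The contrast in direction stood under each scaling, with 351 higher and 272 lower against 40 higher and 611 lower after rescaling by the median ratio. It was 560 and 170 against 60 and 561 after quantile normalization, and 846 and 102 against 69 and 513 with equal sums. A gene that entered through the control table at 6 hpf alone had to be lower in the knockdown, and 342 of the 507 entered so. When the floor was put on the mean of both arms instead, 53 (4.94%) of 1073 such genes were higher and 391 (36.4%) lower.

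The same genes can be read by their own course over development, averaged over both arms. Cleared transcripts numbered 699, defined by a level of 5 RPKM or more at 2 hpf and a log2 change by 6 hpf no higher than -2. Of these 134 (19.2%) were higher in the knockdown at 6 hpf alone and 1 (0.143%) was lower, with a median difference of 0.72. Activated transcripts numbered 1192, defined by less than 1 RPKM at 2 hpf, 3 RPKM or more at 6 hpf and a log2 change no lower than 2. Of these 59 (4.95%) were higher and 399 (33.5%) lower, with a median difference of -0.53. Among 2515 stable transcripts, whose log2 change stayed within 0.5 of 0, 159 (6.32%) were higher and 19 (0.755%) lower. The tables that define the course are also those that define the difference, so these shares describe the data and are not independent of it.

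**Figure D2:**
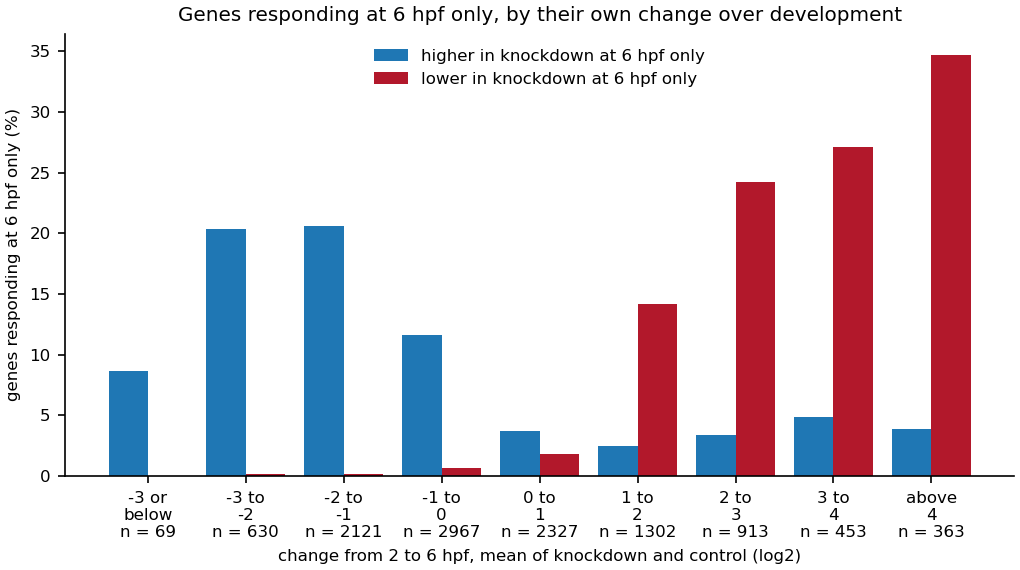
Bars give the percentage of genes, of the number n under each bin, that were higher (blue) or lower (red) in the knockdown at 6 hpf alone, and the x axis bins genes by their log2 change from 2 to 6 hpf, averaged over both arms. The higher share was 20.3% and 20.6% in the bins from -3 to -1, and the lower share grew to 34.7% in genes with a change above 4.

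The difference equals the log2 change from 2 to 6 hpf in knockdown less that in control. A class picked by it thus fixed which arm had the higher change, and the values here only describe the arms. Taken first are the genes present at each age and higher at 6 hpf alone. The median log2 change from 2 to 6 hpf of these 897 genes was -0.36 in knockdown and -1.86 in control embryos. A drop of at least 2-fold by 6 hpf was seen in 193 of them in the knockdown and in 777 in the control. For the 507 lower genes under 1 RPKM at 2 hpf, the median log2 change was 1.77 in knockdown and 3.88 in control embryos. Past 4-fold at 6 hpf were 32 of the 1102 higher genes and 282 of the 721 lower genes. This contrast leans on the floor, since 409 of the 721 entered through the control table at 6 hpf alone, where they were high. Of the 1102, 79 entered through the knockdown table at 6 hpf alone. Among genes present at each age, 15 of the 897 higher and 8 of the 92 lower genes were past 4-fold. In bulk RNA of whole embryos, fewer cells of a kind and less RNA per cell cannot be told apart.

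The targeted transcript, ddx3xb (ENSDARG00000005774), belonged to the class that was higher at 6 hpf alone. It had 250.8 RPKM in knockdown and 273.9 RPKM in control embryos at 2 hpf, and 321.8 RPKM in knockdown and 141.0 RPKM in control embryos at 6 hpf. The pair of values at 2 hpf was close (log2 ratio -0.13), and at 6 hpf only the control was low (log2 ratio 1.18, difference 1.31). Rescaling by the median ratio lowered the ratio at 6 hpf to 0.90 and took the gene out of the class. The paralog ddx3xa, with which reads may be shared, had 84.3 and 102.7 RPKM in knockdown and control embryos at 2 hpf and 115.1 and 41.8 RPKM at 6 hpf (difference 1.72). These were the only members of 39 DEAD-box helicase genes in a response class, and the median difference of that list was 0.40, close to the 0.41 of all genes. The RNA level does not report on the protein and does not check the labels.

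Of 38 known maternal transcripts 8 were higher at 6 hpf alone (against 9.89% of all genes and 12% of those present at each age) and none was lower, and 7 were in the class after rescaling by the median ratio. The median difference of the list was 0.54, against 0.41 over all genes and 0.52 over those present at each age. The oocyte growth factor gene GDF9 had 22.7 RPKM in knockdown and 25.2 RPKM in control embryos at 2 hpf, then 12.8 RPKM in knockdown and 2.54 RPKM in control embryos at 6 hpf (difference 2.11). The germ plasm organizer buc had 117.6 and 170.4 RPKM in knockdown and control embryos at 2 hpf and 48.2 and 14.97 RPKM at 6 hpf (difference 2.15). Both genes were well above the floor in either arm at 2 hpf, and the control at 6 hpf was the lowest table. CNOT8, which codes for a deadenylase of the CCR4-NOT complex, had 357.2 and 382.0 RPKM in knockdown and control embryos at 2 hpf and 217.9 and 61.6 RPKM at 6 hpf (difference 1.903). The other members were the poly(A)-binding protein gene pabpn1l, the meiotic kinase gene MOS, the RNA polymerase III factor gene GTF3A (ENSDARG00000071583), the cyclin gene CCNA1 and the Tudor-domain gene TDRD1, with differences between 1.25 and 1.73. Another gene named GTF3A on the list passed 2-fold at neither age.

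Germ cell genes overlap this list. Of 17 measured, buc, TDRD1, PIWIL2 of the piRNA pathway, tdrd5 and gra were higher at 6 hpf alone, against 9.89% of all genes, and 1 of the 5 was after rescaling by the median ratio. Their median log2 ratio was -0.19 at 2 hpf and 0.76 at 6 hpf, with a median difference of 0.87. The genome activator gene nanog, a homeobox factor supplied by the mother, showed the same kind of difference at a high level. It had 1187 RPKM in knockdown and 1178 RPKM in control embryos at 2 hpf, and 728.0 RPKM in knockdown and 207.5 RPKM in control embryos at 6 hpf (difference 1.79). Its partner pou5f3 did not pass 2-fold at either age, with 496.0 and 566.4 RPKM in knockdown and control embryos at 2 hpf and 674.6 and 706.7 RPKM at 6 hpf.

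Among 39 cell cycle genes 4 were higher and 3 lower at 6 hpf alone, shares near the 9.89% and 6.47% of all genes. Higher at 6 hpf alone were the replication-licensing inhibitor gene GMNN, the oocyte kinase gene WEE2, CCNA1 and the spindle checkpoint gene mad1l1. GMNN had 305.8 RPKM in knockdown and 374.1 RPKM in control embryos at 2 hpf, then 298.2 RPKM in knockdown and 91.4 RPKM in control embryos at 6 hpf. Lower at 6 hpf alone were the mitotic kinase gene CDK1, the checkpoint gene BUB3 and the cyclin-dependent kinase inhibitor gene CDKN1B. CDK1 had 4.62 and 4.34 RPKM in knockdown and control embryos at 2 hpf, and 21.8 and 52.6 RPKM at 6 hpf, so it was a gene that climbed in both arms and less in the knockdown. The median difference of the list was 0.37, near that of all genes. Of 46 genes of mRNA decay, CNOT8, the decapping-associated gene LSM14B and the antiproliferative gene TOB1 were higher and ZFP36L1, which codes for a protein that binds AU-rich elements, was lower at 6 hpf alone (median difference 0.37). These 3 and 1 genes are fewer than the shares of all genes would give in a list of that size.

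Within the class higher at 6 hpf alone, the 6 genes with a symbol and the highest difference among those present at each age were led by chtopb, whose human counterpart acts in mRNA export. It had 21.4 RPKM in knockdown and 31.6 RPKM in control embryos at 2 hpf, then 26.3 RPKM in knockdown and 4.85 RPKM in control embryos at 6 hpf (difference 2.76). Its knockdown level hardly moved with age, while the control level fell. QRSL1, for a subunit of a mitochondrial amidotransferase, had 4.61 and 9.01 RPKM in knockdown and control embryos at 2 hpf and 9.65 and 2.41 RPKM at 6 hpf (difference 2.48). The membrane-remodelling gene chmp4c, of the ESCRT-III family, had 20.3 and 33.6 RPKM in knockdown and control embryos at 2 hpf and 30.5 and 8.58 RPKM at 6 hpf (difference 2.42). The others were TIMM29, for a part of a mitochondrial import complex, gig2n and fam83fa, with differences of 2.44, 2.41 and 2.40. In all 6 the knockdown was below control at 2 hpf and above it at 6 hpf. The class fixes the sign at 6 hpf, and ranking by the difference favours a ratio below 0 at 2 hpf. Of the 1102 higher genes, 877 had such a ratio. Most genes did: over all 11145 the median ratio at 2 hpf was -0.15 and the third quartile 0.0093.

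**Figure D3:**
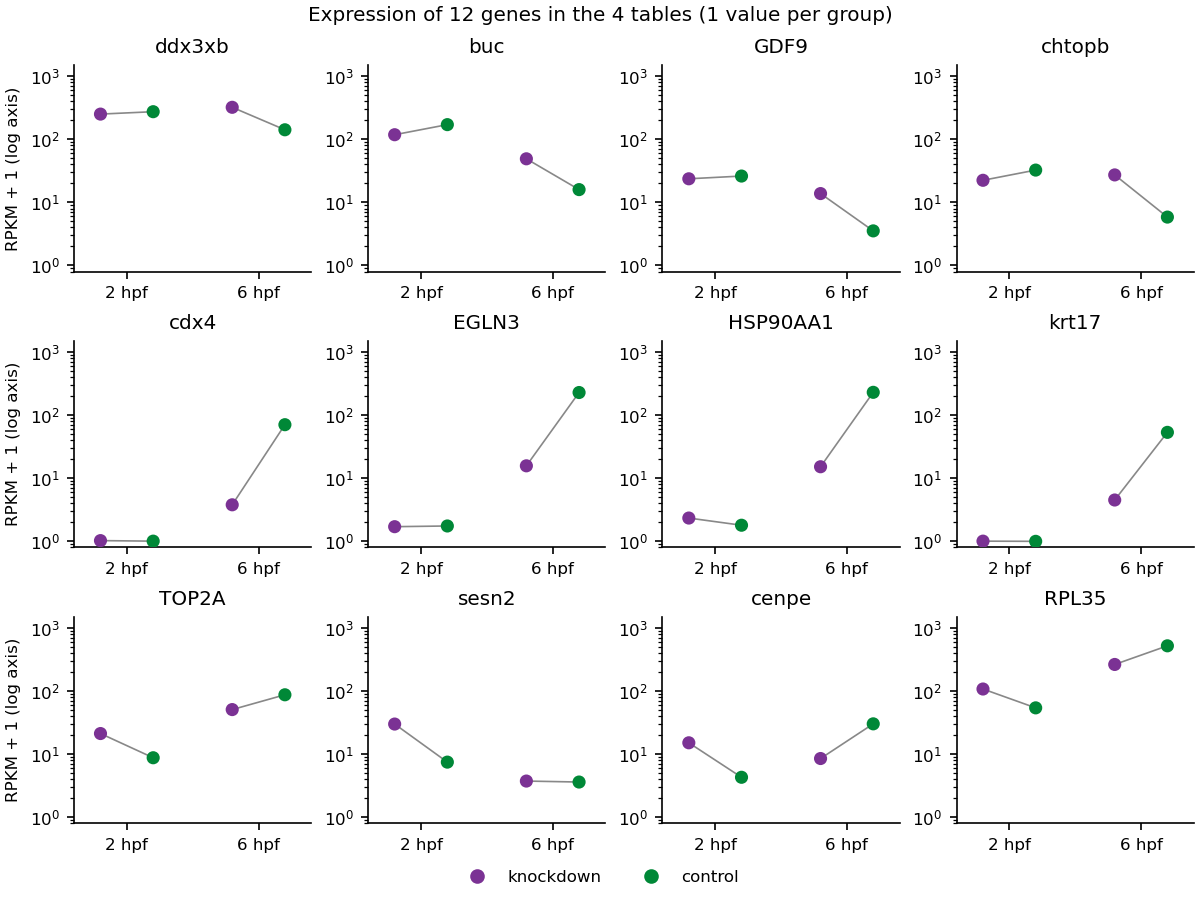
Each panel shows 1 gene in the 4 tables as RPKM + 1 on a log axis, with knockdown (purple) left of control (green) at 2 hpf and at 6 hpf and a line joining the pair of each age. Points are single values per group, without error bars. The top row shows ddx3xb and 3 stored transcripts that were low only in control at 6 hpf, the middle row 4 genes that were high only in control at 6 hpf, and the bottom row genes with a response at 2 hpf or a sign change.

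Genes of the yolk syncytial layer, the nucleated layer at the surface of the yolk that exports lipid to the embryo, had a median difference of -2.24 over the 14 of 24 listed genes that reached the floor, the lowest of the lists with more than 1 such gene. Counts for every list below are likewise over the members at the floor, which were 24 of 28 for the enveloping layer, 11 of 21 for neurectoderm and 32 of 49 for low oxygen. In total 12 were lower in the knockdown at 6 hpf alone (against 6.47% of all genes) and none was higher. Of all genes under 1 RPKM in both tables at 2 hpf, as most of these 12 were, 38.4% were lower. Apolipoprotein gene apoeb had 1.133 RPKM in knockdown and 0.539 RPKM in control embryos at 2 hpf, and 405.0 RPKM in knockdown and 1678 RPKM in control embryos at 6 hpf. It was thus induced strongly in both arms, to a lower level in the knockdown (difference -2.52). PLA2G12B, which acts in lipoprotein assembly, was listed at 0 in both tables at 2 hpf and had 1.64 RPKM in knockdown and 38.5 RPKM in control embryos at 6 hpf (difference -3.90). The lipid transfer gene MTTP and the transcription factor genes HNF4A and mxtx1 were in the class too, with differences of -1.96, -1.47 and -1.01. The regulator mxtx2 did not share this, with 0.768 and 0.172 RPKM in knockdown and control embryos at 2 hpf and 48.6 and 29.5 RPKM at 6 hpf (difference 0.11).

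The enveloping layer, an epithelium that covers the blastoderm, gave a median difference of -1.48 over 24 members, with 16 lower at 6 hpf alone and none higher. The lower share was 6.47% of all genes and 38.4% of genes under 1 RPKM in both tables at 2 hpf. Its keratin gene krt17 had 0.00712 RPKM in knockdown and 0 in control embryos at 2 hpf, and 3.53 RPKM in knockdown and 52.6 RPKM in control embryos at 6 hpf (difference -3.58). The annexin gene ANXA1 had 0.401 and 0.409 RPKM in knockdown and control embryos at 2 hpf and 29.9 and 278.7 RPKM at 6 hpf (difference -3.17). Near-identical keratin genes can share reads, and single keratins are uncertain. The list also held exceptions. The Grainyhead-like factor gene grhl3 was higher in the knockdown by a log2 ratio of 0.87 at 2 hpf and 0.91 at 6 hpf, and the early epithelial factor gene klf17 responded only at 2 hpf, with 3.12 RPKM in knockdown and 0.739 RPKM in control embryos then and 96.2 and 82.5 RPKM at 6 hpf. With the floor on the mean of both arms, 12 of 14 yolk syncytial genes and 13 of 20 enveloping layer genes were lower at 6 hpf alone.

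Patterning genes of the 6 hpf class were mostly lower too, at shares near that of all genes under 1 RPKM at 2 hpf. Among Wnt-responsive posterior genes the caudal homeobox gene cdx4 had 0.0269 RPKM in knockdown and 0.00672 RPKM in control embryos at 2 hpf, and 2.80 RPKM in knockdown and 69.9 RPKM in control embryos at 6 hpf (difference -4.25). It was near 0 in either arm at 2 hpf and high only in the control at 6 hpf. Together with msgn1, SP5, NKD1 and TCF7 it made 5 of 13 members lower at 6 hpf alone. Of 16 BMP and ventral genes 7 were, led by eve1, with 8.93 RPKM in knockdown and 85.5 RPKM in control embryos at 6 hpf. The ligand gene BMP4 had 1.47 RPKM in knockdown and 12.1 RPKM in control embryos at that age. For FGF signalling the feedback inhibitor genes DUSP6, SPRY4, SPRED1 and SPRY2 and the ligand gene fgf24 made 5 of 13. In these 3 lists no member was higher at 6 hpf alone, and their median differences were -0.50, -1.02 and -0.51. Beside these counts, 6.47% of all genes and 38.4% of those under 1 RPKM in both tables at 2 hpf were lower at 6 hpf alone. With the floor on the mean of both arms, the lower genes were 3 of 10 for Wnt, 6 of 15 for BMP, 3 of 11 for FGF and 8 of 23 for Nodal. Under that floor 36.4% of all genes under 1 RPKM in both tables at 2 hpf were lower.

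Of 25 Nodal and mesendoderm genes 10 were lower at 6 hpf alone, among them mespaa, mespab, otx2a, TBXT, GATA5 and FOXA2. For this list and the next, the lower share was 6.47% of all genes and 38.4% of those under 1 RPKM in both tables at 2 hpf. TBXT (ENSDARG00000039806), a Brachyury gene of mesoderm, had 0.179 RPKM in knockdown and 6.72 RPKM in control embryos at 6 hpf, and lay at or near 0 at 2 hpf. Others on the list did not pass 2-fold: the organizer gene GSC had 28.8 and 34.4 RPKM in knockdown and control embryos at 6 hpf, the notochord gene noto 100.9 and 77.1 RPKM, and the Nodal inhibitor lft2 16.2 and 13.2 RPKM. In the neurectoderm list 5 of 11 were lower at 6 hpf alone, with SOX2 at 2.18 RPKM in knockdown and 44.8 RPKM in control embryos (difference -3.74). The midbrain repressor gene her5 went against its list, with 1.78 and 0.448 RPKM in knockdown and control embryos at 2 hpf and 39.4 and 7.41 RPKM at 6 hpf. Its direction was upward at both ages, although only 6 hpf passed 2-fold.

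The earliest zygotic genes were divided in direction at 6 hpf. Of 28 first-wave genes 5 were lower at 6 hpf alone, led by the segmentation clock gene her7 with 2.34 RPKM in knockdown and 43.4 RPKM in control embryos. The lower share of all genes was 6.47% and the higher share 9.89%. Among genes under 1 RPKM in both tables at 2 hpf these shares were 38.4% and 5.45%. Another 5 were higher: blf, her5, dharma, klf2a and vgll4l. The zinc finger gene blf had 10.4 RPKM in knockdown and 7.07 RPKM in control embryos at 2 hpf, and 309.0 RPKM in knockdown and 95.2 RPKM in control embryos at 6 hpf. The Hippo-pathway cofactor gene vgll4l had 0.295 and 0.131 RPKM in knockdown and control embryos at 2 hpf and 134.9 and 30.4 RPKM at 6 hpf. First-wave genes were the list, after ribosomal proteins, with the highest median log2 ratio at 2 hpf, at 0.19, and 2 of them, klf17 and irx7, were higher at that age alone. The median log2 ratio of the list at 6 hpf was -0.10, and its median difference -0.60.

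Among genes under 1 RPKM at 2 hpf the highest differences with a symbol were those of tsc22d3, MIR203B, MIR92A1 and znf1089. The leucine zipper gene tsc22d3, a glucocorticoid target in mammals, had 0.387 RPKM in knockdown and 0.284 RPKM in control embryos at 2 hpf, and 32.0 RPKM in knockdown and 5.20 RPKM in control embryos at 6 hpf (difference 2.30). The zinc finger gene znf1089 had 0.937 and 0.0604 RPKM in knockdown and control embryos at 2 hpf and 39.1 and 4.71 RPKM at 6 hpf (difference 1.94). Both rose with age in either arm, and further in the knockdown. MIR203B and MIR92A1 are microRNA genes, and such short features reach a given RPKM with few reads. At the low end lay si:ch211-217k17.9, cdx4, her1 and PLA2G12B, with differences of -4.46, -4.25, -3.91 and -3.90. The clock gene her1 had 1.98 RPKM in knockdown and 41.6 RPKM in control embryos at 6 hpf.

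Genes of heat shock and other stress responses were another group of the 6 hpf class. Of 24 genes 11 were lower at 6 hpf alone (against 6.47% of all genes), and 1, the autophagy receptor gene SQSTM1, was higher (against 9.89%). The list is wider than heat shock genes, and the stress gene DDIT3 was among the 11. Most of the 11 were under 1 RPKM in both tables at 2 hpf, and of all such genes 38.4% were lower. The inducible chaperone gene HSP90AA1 had 1.34 RPKM in knockdown and 0.801 RPKM in control embryos at 2 hpf, and 14.3 RPKM in knockdown and 230.3 RPKM in control embryos at 6 hpf (difference -4.30). The collagen chaperone gene SERPINH1 (ENSDARG00000019949) had 6.93 RPKM in knockdown and 105.9 RPKM in control embryos at 6 hpf, and hsp70.3 had 11.5 and 145.9 RPKM. In all of these the control at 6 hpf was the single high table. A constitutive HSPA8 gene (ENSDARG00000068992) had 512.0 and 496.2 RPKM in knockdown and control embryos at 2 hpf and 1199 and 1425 RPKM at 6 hpf, so it did not pass 2-fold at either age. Heat shock genes have close copies that can share reads. With the floor on the mean of both arms, 9 of 21 genes of the list were lower at 6 hpf alone.

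Genes of the low-oxygen response held 14 of 32 members lower (against 6.47% of all genes) and 2 higher (against 9.89%) at 6 hpf alone, and the lower count was 14 under each of the 3 rescalings. The lower share was 38.4% of genes under 1 RPKM in both tables at 2 hpf and 1.23% of genes present at each age. Members of both kinds were among the 14. EGLN3, for an oxygen-sensing prolyl hydroxylase, had 0.708 RPKM in knockdown and 0.752 RPKM in control embryos at 2 hpf, and 14.8 RPKM in knockdown and 228.6 RPKM in control embryos at 6 hpf (difference -3.83). The glycolytic regulator gene PFKFB3 had 6.62 RPKM in knockdown and 85.2 RPKM in control embryos at 6 hpf (difference -3.55). Both were under 1 RPKM at 2 hpf in either arm. With the floor on the mean of both arms the list held 12 of 30. Several members were already present at 2 hpf: P4HA1, for a collagen prolyl hydroxylase, had 73.2 and 70.4 RPKM in knockdown and control embryos at 2 hpf and 23.6 and 94.9 RPKM at 6 hpf, and the aldolase gene ALDOC had 16.9 and 20.2 RPKM and then 4.96 and 27.5 RPKM. In these the knockdown at 6 hpf was the single low table. The transcript of the master regulator, HIF1A, did not pass 2-fold, with 34.2 and 39.8 RPKM in knockdown and control embryos at 2 hpf and 63.5 and 55.7 RPKM at 6 hpf, while EPAS1 had 1.22 RPKM in knockdown and 15.7 RPKM in control embryos at 6 hpf.

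The members of this list with the opposite direction were the lactate transporter gene SLC16A3 and TPI1 (ENSDARG00000025012), for a glycolytic isomerase. SLC16A3 had 556.3 RPKM in knockdown and 628.8 RPKM in control embryos at 2 hpf, and 284.4 RPKM in knockdown and 116.6 RPKM in control embryos at 6 hpf. Both genes were among the transcripts that dropped with age, and dropped less in the knockdown. Within the class lower at 6 hpf alone, the 6 lowest differences among genes with a symbol present at each age included those of 3 low-oxygen genes, ANKRD37, ALDOC and P4HA1. ANKRD37 had 3.24 and 5.23 RPKM in knockdown and control embryos at 2 hpf and 11.3 and 114.6 RPKM at 6 hpf (difference -2.68). The other 3 were rsrp1, the mitochondrial co-chaperonin gene HSPE1 and the ubiquitin ligase gene znrf2a, with differences of -2.45, -2.05 and -1.88.

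**Figure D4:**
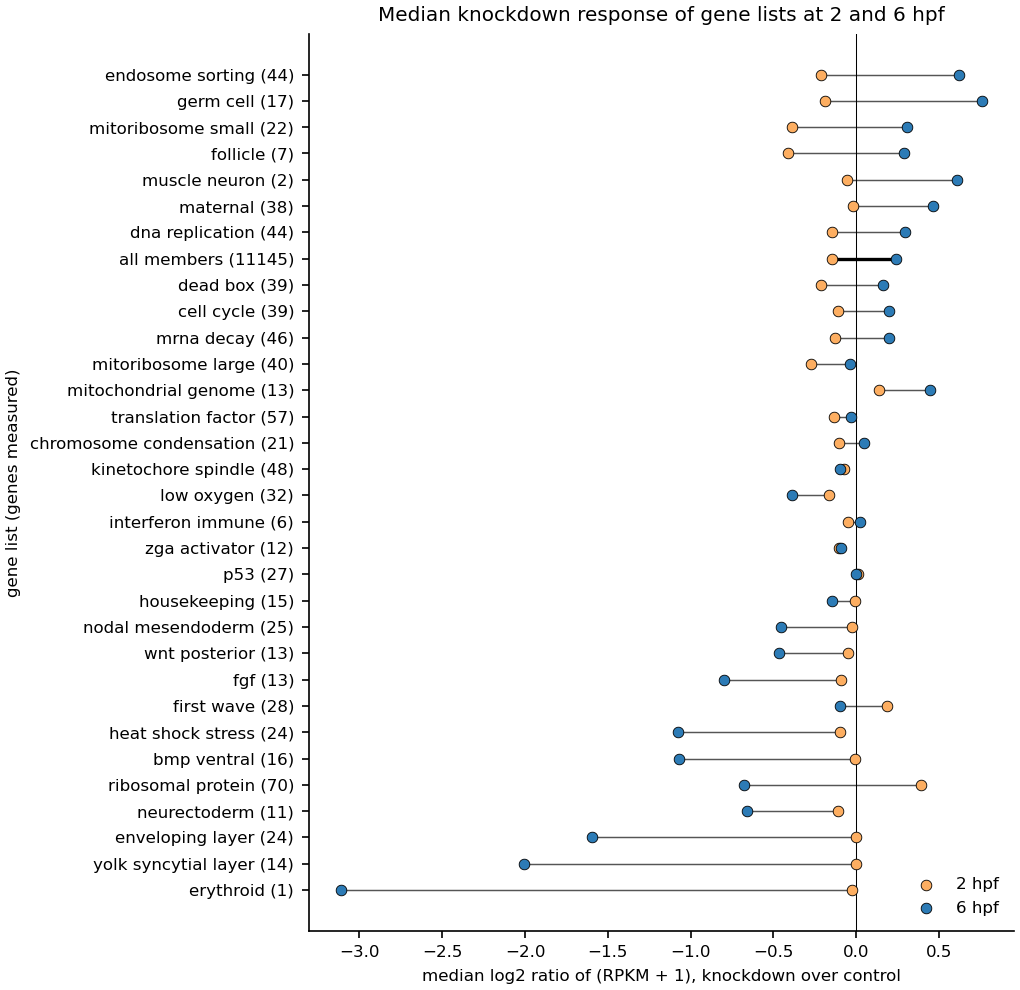
Each row is a gene list with the number of measured genes in parentheses, and points give the median log2 ratio of knockdown over control on RPKM + 1 at 2 hpf (orange) and 6 hpf (blue). The row of all 11145 genes runs from -0.15 to 0.24. Yolk syncytial and enveloping layer genes lie at 0 at 2 hpf and at -2.01 and -1.59 at 6 hpf, and the ribosomal protein list crosses 0 between the ages.

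Cytosolic ribosomal protein genes changed sign as a group without passing 2-fold in most cases. Of 70 genes 64 were above 0 at 2 hpf and below 0 at 6 hpf, and this count was 69, 66 and 67 after rescaling by the median ratio, quantile normalization and equal sums. The share of all genes with this sign change is not given here. As deposited, the third quartile of the log2 ratio at 2 hpf over all genes was 0.0093. Rescaling by the median ratio moved genes in general toward this sign change, so its higher count cannot be read as particular to the list. The median log2 ratio of the list was 0.39 at 2 hpf and -0.68 at 6 hpf, against -0.15 and 0.24 over all genes. The difference reached 2-fold downward in 43 genes, against 8.11% of all genes. RPL35 had 107.1 RPKM in knockdown and 53.3 RPKM in control embryos at 2 hpf, and 264.2 RPKM in knockdown and 523.0 RPKM in control embryos at 6 hpf (difference -1.98). Its log2 ratios of 0.99 and -0.98 stopped just short of 2-fold at each age, and after rescaling by the median ratio it counted as a sign change. At 6 hpf alone 6 genes were lower, among them RPL10A, RPLP0, RPL5 (ENSDARG00000020197) and RPS6, and none was higher, against 29 lower with rescaling by the median ratio and 7 with quantile normalization. Another gene named RPL5 (ENSDARG00000015862) passed 2-fold at neither age.

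All these transcripts had higher RPKM at 6 than at 2 hpf, by a median log2 change of 1.199 in knockdown and 2.28 in control embryos. In poly(A) RNA, more of a transcript and better capture of it cannot be told apart. RPL10A had 64.9 and 41.6 RPKM in knockdown and control embryos at 2 hpf and 125.4 and 270.3 RPKM at 6 hpf. The exceptions to the sign change included RPL7L1, a ribosome assembly gene, with a difference of 0.35, and RPL29, whose log2 ratio stayed above 0 at 6 hpf at 0.06. Genes for mitochondrial ribosomal proteins did not share the pattern: 22 of the small subunit had a median difference of 0.75 and 40 of the large subunit one of 0.23. Among the 57 translation factor genes the median difference was 0.17, with EIF4G3 (ENSDARG00000077215), EIF2B5 and PAIP1 higher and eef1a1l1 and EEF1D lower at 6 hpf alone, both below the shares of all genes. The initiation factor gene EIF2S1 (ENSDARG00000005827) was lower at 2 hpf alone, with 39.0 RPKM in knockdown and 79.1 RPKM in control embryos then and 255.4 and 206.8 RPKM at 6 hpf. The other genes named EIF4G3 and EIF2S1 passed 2-fold at neither age.

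**Figure D5:**
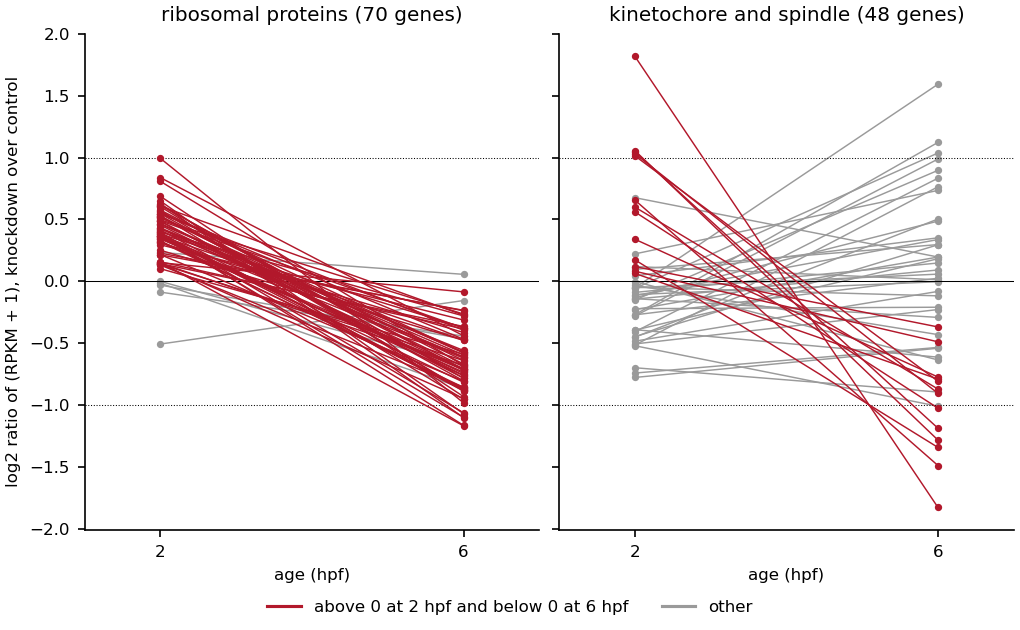
Lines join the log2 ratio of knockdown over control on RPKM + 1 of a gene at 2 hpf to its ratio at 6 hpf, for 70 ribosomal protein genes (left) and 48 kinetochore and spindle genes (right), with dotted lines at 2-fold. Red lines, 64 on the left and 13 on the right, run from above 0 at 2 hpf to below 0 at 6 hpf.

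A smaller set of cell division genes crossed 2-fold in both directions. The kinetochore motor gene cenpe had 14.2 RPKM in knockdown and 3.30 RPKM in control embryos at 2 hpf, and 7.54 RPKM in knockdown and 29.3 RPKM in control embryos at 6 hpf (log2 ratios 1.82 and -1.83, difference -3.65). The kinetochore scaffold gene knl1 had 8.18 and 3.44 RPKM in knockdown and control embryos at 2 hpf and 8.47 and 20.6 RPKM at 6 hpf (difference -2.24). The centrosomal anchoring gene akap9 had 13.0 and 5.73 RPKM in knockdown and control embryos at 2 hpf and 1.43 and 4.91 RPKM at 6 hpf (difference -2.34). These were the 3 genes higher at 2 hpf and lower at 6 hpf, and all 3 stayed in the class under each of the 3 rescalings. At 2 hpf knl1 and akap9 lay just past 2-fold, with log2 ratios of 1.05 and 1.06. A pseudocount of 5 RPKM left 3 sign changes of either direction. In knl1 the knockdown level was alike at both ages and the control level climbed.

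In the other direction, the DNA repair glycosylase gene NEIL1 had 4.07 RPKM in knockdown and 11.2 RPKM in control embryos at 2 hpf, and 23.4 RPKM in knockdown and 10.3 RPKM in control embryos at 6 hpf (difference 2.37). It counted as a response at 2 hpf alone after rescaling by the median ratio or quantile normalization. The gene zgc:171717 had 3.41 and 14.5 RPKM in knockdown and control embryos at 2 hpf and 8.63 and 0.418 RPKM at 6 hpf, which is the highest difference of all 11145 genes at 4.58. For si:ch211-145c1.1 the values were 12.6 and 27.19 RPKM in knockdown and control embryos at 2 hpf and 21.8 and 7.45 RPKM at 6 hpf, and it counted as a response at 6 hpf alone under all 3 rescalings. The remaining 3 genes with a sign change carried no symbol.

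Several division and replication genes were among the 29 higher at 2 hpf alone, although features without a symbol had larger differences. The DNA topoisomerase gene TOP2A had 20.3 RPKM in knockdown and 7.78 RPKM in control embryos at 2 hpf, and 50.0 RPKM in knockdown and 86.6 RPKM in control embryos at 6 hpf (difference -2.06). The spindle kinesin gene kif15 had 20.9 and 9.70 RPKM in knockdown and control embryos at 2 hpf and 10.9 and 21.3 RPKM at 6 hpf, and the checkpoint ATPase gene TRIP13 had 14.1 and 6.46 RPKM and then 2.88 and 5.79 RPKM. These 3 were below control by less than 2-fold at 6 hpf and became sign changes after rescaling by the median ratio. The replicative helicase gene CDC45 had 33.3 RPKM in knockdown and 15.3 RPKM in control embryos at 2 hpf, and the histone chaperone gene ASF1B 34.3 and 13.6 RPKM. By 6 hpf CDC45 stood at 7.07 RPKM in knockdown and 11.8 RPKM in control embryos and ASF1B at 3.15 and 3.58 RPKM.

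Not all genes of these functions behaved so. Of 48 kinetochore and spindle genes, a list assembled after its members' values were seen, 13 were above 0 at 2 hpf and below 0 at 6 hpf, and 23, 19 and 16 were after rescaling by the median ratio, quantile normalization and equal sums. Rescaling by the median ratio raised ratios at 2 hpf and lowered them at 6 hpf for genes in general. The share of all genes with this sign change is not given here, so the rise cannot be read as particular to the list. The list's median difference was 0.11 as deposited, and -0.35 on tables divided by their median ratio. Of 44 replication genes, another list assembled afterwards, ORC6, GMNN, pole3 and POLD1 were higher at 6 hpf alone, and CDC45 and ASF1B were the 2 higher at 2 hpf alone (median difference 0.52). Of 21 genes of chromosome condensation and cohesion, TOP2A and the securin gene pttg1 were in a response class (median difference 0.13). Over all genes 9.89% were higher at 6 hpf alone and 0.26% at 2 hpf alone.

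The stress gene sesn2, which codes for a sestrin, had a log2 ratio of 2.01 at 2 hpf and 0.05 at 6 hpf. It had 29.1 RPKM in knockdown and 6.48 RPKM in control embryos at 2 hpf, and 2.75 RPKM in knockdown and 2.62 RPKM in control embryos at 6 hpf (difference -1.95). The knockdown at 2 hpf was the single high table. Its relative sesn3 was in the other class, with 0.0843 and 0.0772 RPKM in knockdown and control embryos at 2 hpf and 75.9 and 234.1 RPKM at 6 hpf. Of 27 genes in the p53 list 4 were lower at 6 hpf alone, sesn3, GADD45G, CCNG2 and PERP, and sesn2 was the 1 higher at 2 hpf alone. The shares of all genes in these classes were 6.47% and 0.26%. Of all genes under 1 RPKM in both tables at 2 hpf, as sesn3, GADD45G and CCNG2 were, 38.4% were lower at 6 hpf alone. The homeobox gene irx7 had 1.70 RPKM in knockdown and 0.207 RPKM in control embryos at 2 hpf, and 35.0 RPKM in knockdown and 53.8 RPKM in control embryos at 6 hpf. The largest 2 hpf log2 ratio with a symbol in this class was that of the Mediator subunit gene MED11, at 2.21, with 7.38 RPKM in knockdown and 0.817 RPKM in control embryos at 2 hpf and 12.004 and 7.70 RPKM at 6 hpf. GSK3A, SLC29A2 and alox5b.3 were also in it, and 16 of the 29 genes had no symbol.

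Of the 49 genes lower at 2 hpf alone, no list examined held more than 1. LAP3, for an aminopeptidase, had 2.93 RPKM in knockdown and 11.0 RPKM in control embryos at 2 hpf, and 17.4 RPKM in knockdown and 12.02 RPKM in control embryos at 6 hpf (difference 2.11). The adhesion gene DSCAM had 0.689 and 5.32 RPKM in knockdown and control embryos at 2 hpf and 0.640 and 0.527 RPKM at 6 hpf (difference 2.01), so by 6 hpf it was low in either arm. The kinase gene prkacbb, for a catalytic subunit of protein kinase A, had 2.86 and 7.62 RPKM and then 3.83 and 1.49 RPKM (difference 2.11). The others of the 6 highest differences were uqcc5, kctd12b and SYCP1, for a protein of the synaptonemal complex, at 1.93, 1.87 and 1.85. Of the 78 genes with a response at 2 hpf alone, 44 stayed after rescaling by the median ratio, 46 after quantile normalization and 59 with equal sums. Thus uqcc5 left the class under all 3 rescalings, SYCP1 after rescaling by the median ratio or quantile normalization and prkacbb after quantile normalization.

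Genes with a response at both ages were few and differed in kind. The largest values belonged to the 5 features above 5000 RPKM, none of which carried a symbol. The highest, ENSDARG00000085168, had 126060 RPKM in knockdown and 2147 RPKM in control embryos at 2 hpf, and 7592 RPKM in knockdown and 1514 RPKM in control embryos at 6 hpf. The ribosomal RNA feature 5_8S_rRNA had 812.2 and 70.0 RPKM in knockdown and control embryos at 2 hpf and 276.9 and 53.4 RPKM at 6 hpf. In all 6 features the ratio was smaller at 6 hpf. Ribosomal RNA genes are repeated in the genome, so reads cannot be assigned to single copies and such values are uncertain one by one. The libraries were made for poly(A) RNA, and whether carry-over of other RNA differed between the groups was not tested. The ratios of such features thus need not report a response to the knockdown.

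A second set of 10 genes that were higher at both ages was induced in either arm. Their control levels were more than 10 times higher at 6 than at 2 hpf, their log2 ratios ran between 1.05 and 2.61 at 2 hpf and between 2.44 and 2.77 at 6 hpf, and 2 of them carried a symbol. Of these, ENSDARG00000095745 had 7.70 RPKM in knockdown and 1.05 RPKM in control embryos at 2 hpf, and 349.6 RPKM in knockdown and 50.4 RPKM in control embryos at 6 hpf. Its neighbour in name, ENSDARG00000040141, had 7.03 and 1.41 RPKM and then 391.7 and 65.7 RPKM, knockdown before control, and reads may be shared among such copies. Apart from these, RBM22, for a splicing factor, had 3.42 and 0.350 RPKM in knockdown and control embryos at 2 hpf and 11.7 and 1.46 RPKM at 6 hpf. The nuclease gene APEX2 kept the same log2 ratio of 1.28 at both ages, with 12.3 and 4.47 RPKM in knockdown and control embryos at 2 hpf and 2.78 and 0.561 RPKM at 6 hpf.

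The 20 genes lower at both ages included the aldolase gene ALDOA and the small heat shock gene HSPB1. ALDOA had 20.8 RPKM in knockdown and 42.7 RPKM in control embryos at 2 hpf, and 129.3 RPKM in knockdown and 386.6 RPKM in control embryos at 6 hpf. HSPB1 had 0.976 and 3.10 RPKM in knockdown and control embryos at 2 hpf and 491.7 and 1489 RPKM at 6 hpf, so it was strongly induced in either arm with the knockdown lower throughout. The Wnt inhibitor gene SFRP1 had 0.579 and 3.41 RPKM in knockdown and control embryos at 2 hpf and 19.9 and 45.3 RPKM at 6 hpf, and the desmosomal gene dsg2.1 had 2.43 and 7.59 RPKM and then 8.81 and 22.7 RPKM. By the smaller of the log2 ratios at the 2 ages the most reduced named genes were si:dkey-253d23.3, MIA, TSKU, sc:d217 and tmem45a. The secreted-protein gene TSKU had 1.54 and 5.46 RPKM in knockdown and control embryos at 2 hpf and 4.63 and 20.4 RPKM at 6 hpf. Those 5 most reduced genes kept their class under all 3 rescalings, as did 5_8S_rRNA, RBM22 and APEX2, while 41 of all 47 genes did after rescaling by the median ratio.

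Markers of erythroid, muscle and neuron cells, which whole embryos of these ages should lack, were sparse. Of 11 erythroid genes 1 reached 5 RPKM (cahz, at most 15.9 RPKM), and of 24 muscle and neuron genes 2 did. Follicle and ovary genes were not sparse. Of 17, 7 reached 5 RPKM, and CYP17A1 and zp3c were higher in the knockdown at 6 hpf alone. Some of this list, such as zp3b, also stand on the list of maternal transcripts. CYP17A1 had 51.8 and 66.6 RPKM in knockdown and control embryos at 2 hpf and 30.3 and 8.08 RPKM at 6 hpf, a course like that of the oocyte transcripts. Genes listed as used by every cell were divided: of 15, TBP and LSM12 were higher and GAPDHS and tuba1c lower at 6 hpf alone. The latter pair was low at 2 hpf, with 0.611 and 1.27 RPKM in knockdown and control embryos for GAPDHS and 0.446 and 0.4997 RPKM for tuba1c. GAPDH passed 2-fold at neither age, and actb2 had 369.0 and 357.6 RPKM in knockdown and control embryos at 2 hpf and 939.3 and 1067 RPKM at 6 hpf. Over all genes 9.89% were higher and 6.47% lower at 6 hpf alone. The 13 transcripts of the mitochondrial genome had a median difference of 0.22, or -0.24 after rescaling by the median ratio, and none was in a response class. Of the 6 interferon genes measured (median difference -0.04) gbp1 was higher at 6 hpf with a log2 ratio of 1.096, against 0.87 at 2 hpf, without a 2-fold difference between the ages.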

How the data were processed

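Embryos were lysed in TRIzol, messenger RNA was taken up on Dynabeads and stranded KAPA libraries were made, per the labels' protocols. How well each transcript was captured at each age is unknown, so a low RPKM at 2 hpf need not mean that the RNA was absent. HISAT2 2.0.5, SAMtools 1.9, cutadapt 1.13, Trimmomatic 0.36 and genome build Zv9 are named, per the submitters' processing notes. Not given in the sources used here are the counter, its strand setting and the annotation, so overlapping and antisense genes are uncertain. The authors deposited RPKM, reads scaled by gene length and library depth, as 4 tables of 1 value per group. RPKM divides by library depth, so reads taken up by very abundant features push down all other values. Steps in values under 0.3 RPKM put the deeper library of a group at 1.03 to 1.21 times the shallower one. Read totals are unknown, and nothing says that the 2 libraries of a group came from separate clutches.

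A limma interaction had been planned and could not be fitted to 1 value per group. Instead, log2 ratios on RPKM + 1 were taken and genes counted at 2-fold. That scale understates changes of low genes. Classing was tested on simulated data, with every gene raised above the floor and planted responses well past 2-fold. That test does not cover low genes or genes near the class borders. Alternatives were pseudocounts of 0.1 and 5 RPKM, other floors, 3 rescalings and a 1.5-fold threshold. Named genes were ddx3xb, ddx3xa, the extremes of each class and up to 2 members per list, and further members of lists and classes were named after their values were seen. The genes and 25 lists were chosen with earlier results of these data known. The other 6 lists (kinetochore and spindle, chromosome condensation, DNA replication, mitochondrial ribosome small and large subunits, endosomal sorting) were assembled after values were seen. Lists overlap, for example in krt5, apoeb and CCNA1. Symbols matched 21939 identifiers and are cased as that table gives them; some fall on several identifiers. Python 3.11.15, numpy 2.4.6, pandas 2.3.3 and matplotlib 3.10.9 were used.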

Additional observations from a re-analysis of the deposited data

Results flagged for a closer look

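The knockdown lay on opposite sides of the control at the 2 ages, past 2-fold at each, in 6 genes with a symbol. The difference of log2 ratios, 6 minus 2 hpf, was -3.65 for cenpe, -2.34 for akap9 and -2.24 for knl1, which were higher in the knockdown at 2 hpf and lower at 6 hpf. It was 2.37 for NEIL1, 2.48 for si:ch211-145c1.1 and 4.58 for zgc:171717, which were lower at 2 hpf and higher at 6 hpf. With 1 value per group the difference between the ages was not tested for any of them. The lowest table was akap9 in the knockdown at 6 hpf, at 1.43 RPKM, for the first set and zgc:171717 in the control at 6 hpf, at 0.418 RPKM, for the second.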

How the results depend on the processing

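No paired analysis was possible because each group was deposited as 1 value, and for the same reason no replicate could be left out and no limma fit run. Counts are given as higher and lower in the knockdown. With a pseudocount of 0.1 RPKM the 2 hpf class held 70 and 106 genes, both ages 82 and 67, and 36 genes changed sign. With 5 RPKM these were 19 and 10, 11 and 0, and 3, with 412 higher at 6 hpf alone, 972 and 594 with a 2-fold difference, and a median difference of 0.29. Without a floor 87 genes were lower at 2 hpf alone, and the median difference was 0.00062. With 5 RPKM required at each age 92 were lower at 6 hpf alone, the 2 hpf class held 10 and 26, both ages 16 and 10, 214 genes had a 2-fold lower difference, and the median was 0.52. Rescaling by the median ratio gave 429 and 1088 at 6 hpf alone, 20 lower at 2 hpf alone, 14 sign changes, 758 and 1441 differences and a median of 0.0038. Quantile normalization gave 682 higher at 6 hpf alone, 24 lower at 2 hpf alone, 1116 higher differences and a median of 0.14, and equal sums gave 30 lower at 2 hpf alone. At 1.5-fold the counts were 2893 and 1226 at 6 hpf alone, 58 and 347 at 2 hpf alone, 81 and 118 at both, 228 sign changes, and 4563 and 1514 differences. A floor on the mean of both arms, chosen after seeing the data, moved no count over all genes by over 1.5 times, and of the list counts at 6 hpf alone it moved the lower ones of Wnt and FGF to 3 each, against 5 each, that of the genes used by every cell to 1, against 2, and the higher one of muscle and neuron to 0, against 1. Set against the median of all genes, lists reversed sign without a floor, to 0.12 for genome activators, 0.11 for translation factors, 0.22 for the mitochondrial genome, 0.0444 for p53, 0.11 for kinetochore and spindle, 0.0239 for chromosome condensation and 0.23 for the large mitochondrial ribosome, and with quantile normalization to 0.43 for the mitochondrial genome. Without a floor the median of all genes was 0.00062, against 0.41 with it, so a list median between these values changes sign against it. The mitochondrial genome list had all 13 genes at the floor and thus kept its own median. Other lists also gained genes under the floor, such as the genome activators, with 13 genes against 12. Beyond this the cause was not tested. No named gene reversed. Low values rest on few reads, and replicate error is unknown.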

Other observations

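Genes of endosomal sorting, whose products carry membrane cargo between endosomes, lysosomes and the Golgi, had the highest median difference of the 31 lists among those with at least 15 genes, at 0.98 over 44 genes. This list was assembled after its values were seen. Their median log2 ratio was -0.21 at 2 hpf and 0.62 at 6 hpf, and 33 of the 44 lay above the median difference of all genes. SNX18, SNX21, SNX27 (ENSDARG00000033804), VPS26B and VPS39 were higher in the knockdown at 6 hpf alone, 5 of 44 beside 9.89% of all genes, and 20 genes had a difference of at least 2-fold, beside 20.2%. VPS26B, for a part of the retromer that returns cargo from endosomes, had 41.3 RPKM in knockdown and 44.8 RPKM in control embryos at 2 hpf, and 14.3 RPKM in knockdown and 5.38 RPKM in control embryos at 6 hpf. Its transcript dropped in either arm and dropped further in the control. The median difference of the list was 0.56, 0.65 and 0.89 after rescaling by the median ratio, quantile normalization and equal sums, and 1 gene was left in the 6 hpf class after rescaling by the median ratio. By the leading letters of symbols, 52 families had at least 15 members, and snx (0.98), vps (0.94) and mettl (0.91) had the highest median differences, and rpl (-1.04) and rps (-1.001) the lowest.

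Genes lower in the knockdown at 6 hpf alone followed each other in a few places, by the gene order of a later assembly. That order held the 7266 of 11145 genes whose symbol had a single place. All other genes were skipped, and no limit was set on distance. Of 457 lower genes with a place in that order, 90 (19.7%) had another of the class as the next placed gene on either side, against 11.6% of other placed genes. For the higher genes the figures were 150 of 715 (21%) and 18.5%. The longest run of lower genes was krt92, cyt1l, cyt1, krt17 and krt91, and another held apoa4b.2, apoeb, apoc1 and apoc2. Near-identical neighbours can share reads, and the part of that in the runs was not tested.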
